A study of Mus musculus with 6 samples.

Results

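Cholesterol synthesis and its control by the sterol regulatory element-binding proteins were followed through 8 genes in cultured mouse sympathetic neurons, with and without interferon-gamma. The 8 are Srebf2, Insig1, Hmgcs1, Idi1, Fdps, Sqle, Lss and Cyp51, taken by platform gene symbol. They had 19 of the 33653 array features with 1 gene, and are 8 of 19087 genes measured. Control neurons (3 arrays) were untreated and +IFN neurons (3 arrays) had received interferon-gamma at 500 U per ml, a cytokine that T cells and natural killer cells release, and both groups are labelled 24 h. All 6 two-colour arrays set neuron RNA in the Cy5 channel against RNA of untreated postnatal day 5 sympathetic cervical ganglia in the Cy3 channel. The labels give no strain, genotype, culture conditions or number of animals, and do not say that replicates came from separate cultures, so the spread behind each p-value may be only technical.

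Cells make cholesterol from acetyl-CoA through mevalonate, isoprenoid diphosphates, squalene and lanosterol. When sterol in the endoplasmic reticulum is low, SREBP2 is carried to the Golgi by SCAP, cut, and enters the nucleus to switch on the enzymes of this route, and when sterol is high, INSIG proteins hold SCAP and SREBP2 back. In the nervous system, myelinating glia are known for high cholesterol synthesis, and mature neurons are known to take up part of their cholesterol from glia.

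Every value below is a log2 ratio of neuron RNA over ganglion reference, or a difference between mean ratios of the 2 groups. The log2 scale and the direction were inferred from the values and the dyes. A ratio compares 1 gene between samples and says nothing of the level of one gene against another. In RNA of mixed cultures, fewer cells of a type and less RNA per cell cannot be told apart.

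The interferon response was present on all +IFN arrays. Irf1, an early interferon-gamma target, rose by 2.29 ± 0.17 (SE, 3 arrays per group) and Tap1, a peptide transporter, by 3.82 ± 0.15 (limma, adjusted p = 0.00153 and 0.000189). All 8 genes of the interferon check list rose. Sympathetic neuron markers had control means from -0.58 to 0.66 over 8 measured genes. The arrays correlated across genes with Pearson's r of 0.611 to 0.783 within groups and 0.349 to 0.72 between them. Both arrays numbered 2 stood apart in fibroblast markers, and +IFN array 2 differed from the other +IFN arrays in markers of dividing cells. The mean ratio of 6 fibroblast markers was -1.52 on Control array 2 and -1.95 on +IFN array 2, against -0.26 to 0.52 on the other arrays. The mean of 5 markers of dividing cells was -2.50 on +IFN array 2, against -0.40 on each of the other +IFN arrays and -2.61 to -2.05 on the Control arrays.

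The promoters of 3 of the genes are printed because these genes had the largest positive and negative differences of the 8. They are the 250 bases before the RefSeq start of Hmgcs1 (chr13:119690101-119690350), Idi1 (chr13:8885356-8885605) and Insig1 (chr5:28071162-28071411), build GRCm38.p6, plus strand, 5′ to 3′. Capitals mark the sterol regulatory element TCACNCCAC and the CCAAT box, the site of the factor NF-Y that is known to act beside SREBP, which reads ATTGG on the other strand.

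Hmgcs1: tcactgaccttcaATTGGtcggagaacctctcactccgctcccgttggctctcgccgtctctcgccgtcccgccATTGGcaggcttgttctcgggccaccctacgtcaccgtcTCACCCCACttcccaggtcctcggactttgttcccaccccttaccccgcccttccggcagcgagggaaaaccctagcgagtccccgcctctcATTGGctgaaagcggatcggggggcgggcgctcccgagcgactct

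Idi1: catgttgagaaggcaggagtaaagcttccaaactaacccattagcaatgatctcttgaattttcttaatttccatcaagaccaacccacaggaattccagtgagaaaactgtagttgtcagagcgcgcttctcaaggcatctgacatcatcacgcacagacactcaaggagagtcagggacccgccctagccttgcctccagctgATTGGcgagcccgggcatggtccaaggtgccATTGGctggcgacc

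Insig1: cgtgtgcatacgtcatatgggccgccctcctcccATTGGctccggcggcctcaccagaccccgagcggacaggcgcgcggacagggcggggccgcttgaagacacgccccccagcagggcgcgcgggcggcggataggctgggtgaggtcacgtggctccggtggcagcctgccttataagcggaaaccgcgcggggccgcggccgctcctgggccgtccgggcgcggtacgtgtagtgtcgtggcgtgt

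Windows of 300 bases, from 250 before to 50 after the start, were searched on both strands, and 6 of the 8 genes had one. All 6 held a CCAAT box, as did 37.4% of 32851 windows of all genes. Hmgcs1 held 4 of them, of which 3 lie in the printed stretch and 1 lies 11 to 15 bases past the start. Idi1 held 2, and Insig1, Lss, Cyp51 and Srebf2 held 1 each. The sterol regulatory element was matched in Hmgcs1 alone, at bases -137 to -129, and in 1.24% of all windows. The gamma-activated site TTCNNNGAA, the motif bound by interferon-activated STAT dimers, was in none of the 6 windows and in 8.3% of all windows. None of the matches overlapped another. A match describes the letters and is not a measured binding site.

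Sterol pathway expression was compared between +IFN and Control neurons first. None of the 8 genes passed the threshold (limma, adjusted p under 0.05 over 19087 genes), which 1.14% of all genes did. At an unadjusted p under 0.05 (limma) the count was also 0 of 8. Over all 19087 genes, 1006 were higher and 512 lower in +IFN neurons at that level. The median difference of the 8 was 0.03, and that of all genes was 0.006. Of the 8, 5 were higher and 3 lower in +IFN neurons, between -0.42 and 0.30. The 95% intervals allow changes of up to 1.88-fold upwards in Hmgcs1 and down to 0.524 of the control level in Insig1. They come from a fit in which arrays were not paired by number.

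**Figure D1:**
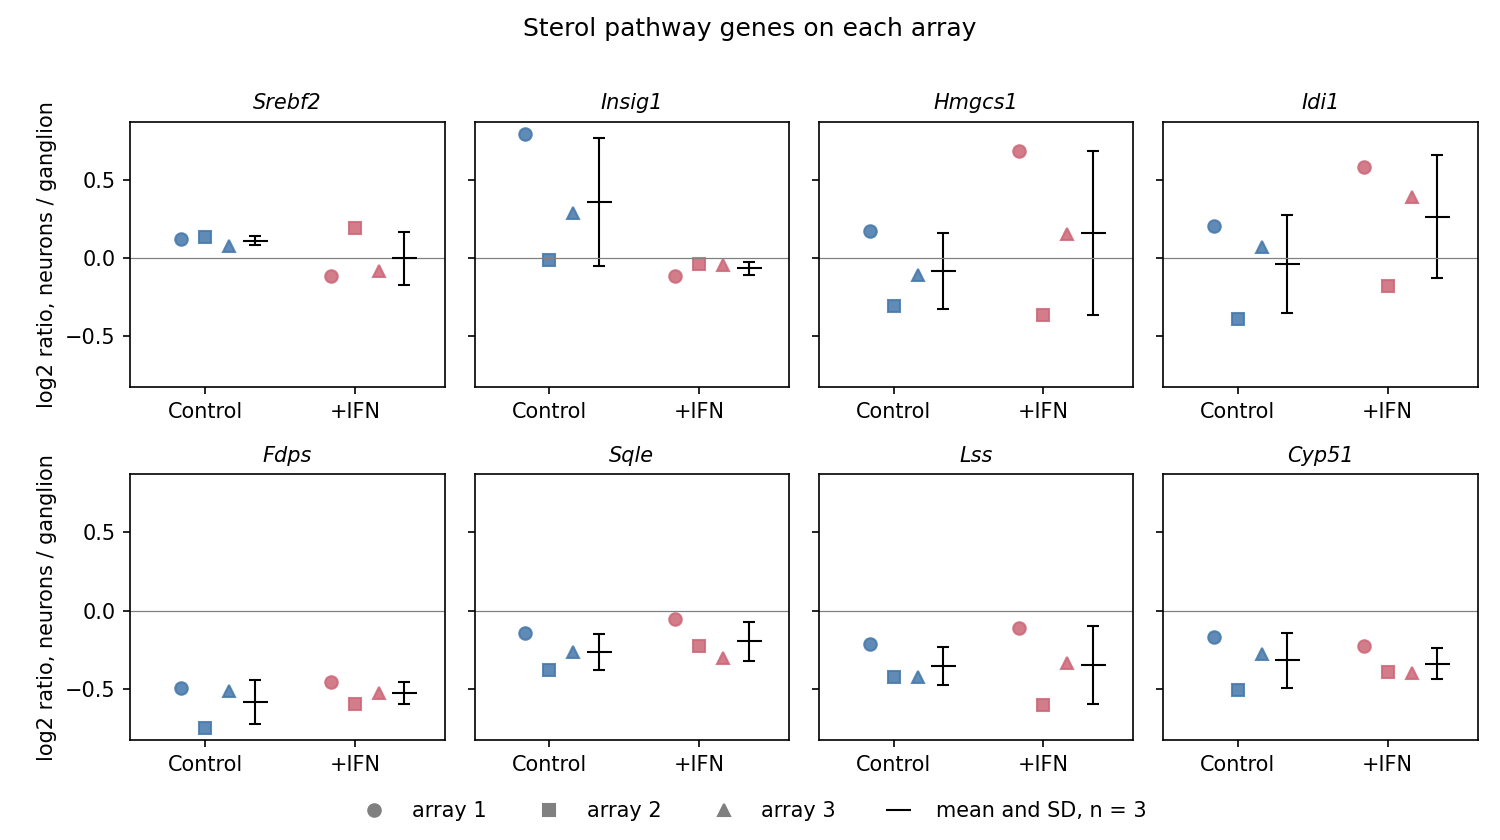
Log2 ratio of neurons over ganglion for each of the 8 genes on the 3 Control arrays (blue) and 3 +IFN arrays (red), with circle, square and triangle for arrays 1, 2 and 3, and mean ± SD (n = 3) in black. Insig1 is the gene whose groups do not overlap, and the squares of Hmgcs1, Idi1 and Fdps are the lowest of both groups.

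Srebf2, which encodes SREBP2, had ratios of 0.12, 0.13 and 0.08 on Control arrays 1, 2 and 3, and of -0.12, 0.19 and -0.08 on +IFN arrays 1, 2 and 3. The Control arrays were nearly equal, and +IFN array 2 lay above them all while the other +IFN arrays lay below. The difference was -0.11 ± 0.13 (SE, 95% interval -0.42 to 0.20, adjusted p = 0.859 by limma). Its 4 features differed more from each other than the groups did, with control means from -0.51 to 0.50.

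Insig1, which retains SCAP in the endoplasmic reticulum and is itself a known SREBP target, had the largest difference of the 8 in size. Its ratios were 0.79, -0.01 and 0.29 on Control arrays 1, 2 and 3, and -0.12, -0.04 and -0.05 on +IFN arrays 1, 2 and 3. All +IFN arrays lay below all Control arrays, and the gap between the groups was small because Control array 2 was almost at the +IFN values. Insig1 is 1 of 8 genes without overlap, and 13.7% of all genes had none. The control mean of 0.36 ± 0.41 (SD, n = 3) compared with -0.07 ± 0.04 in +IFN neurons. The difference of -0.42 ± 0.21 (SE) had a 95% interval from -0.93 to 0.09 and an adjusted p of 0.681 by limma. Both features lay below 0, at -0.58 and -0.27. Without Control array 1 the difference was -0.20, so that array carried much of it. Without Control array 2 the difference was larger, at -0.61, and without both arrays numbered 2 it was -0.62.

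Hmgcs1 joins acetyl-CoA and acetoacetyl-CoA into HMG-CoA, the step before mevalonate. Its ratios were 0.17, -0.31 and -0.11 on Control arrays 1, 2 and 3, and 0.68, -0.36 and 0.15 on +IFN arrays 1, 2 and 3. The range within the +IFN group was wider than the difference of the group means, 0.24 ± 0.28 (SE, 95% interval -0.44 to 0.91, adjusted p = 0.861 by limma). Without +IFN array 1 the difference was -0.02, and without +IFN array 2 it was 0.50. Idi1, which isomerises isopentenyl diphosphate, followed the same array order. Its ratios were 0.20, -0.39 and 0.07 on Control arrays 1, 2 and 3, and 0.58, -0.18 and 0.39 on +IFN arrays 1, 2 and 3. Arrays 1 and 3 of the +IFN group lay above every Control array, and +IFN array 2 lay within the Control range. The difference was 0.30 ± 0.25 (SE, 95% interval -0.30 to 0.90, adjusted p = 0.807), and both features had a similar value, 0.28 and 0.32.

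Fdps, which builds farnesyl diphosphate, the branch point to sterols and to protein prenylation, was below the ganglion level on every array. Its ratios were -0.50, -0.75 and -0.51 on Control arrays 1, 2 and 3, and -0.46, -0.60 and -0.53 on +IFN arrays 1, 2 and 3. The difference was 0.06 ± 0.12 (SE, 95% interval -0.24 to 0.36, adjusted p = 0.922 by limma). This mean hides 2 features of opposite sign, at -0.22 and 0.35. Sqle, the squalene epoxidase that starts the oxygen-dependent part of the route, had 1 feature. It read -0.15, -0.38 and -0.27 on Control arrays 1, 2 and 3, and -0.06, -0.23 and -0.30 on +IFN arrays 1, 2 and 3. The groups overlapped, and the difference was 0.07 ± 0.13 (SE, 95% interval -0.24 to 0.38).

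Lss closes squalene epoxide into lanosterol, and Cyp51 removes a methyl group from lanosterol. Lss read -0.21, -0.42 and -0.43 on Control arrays 1, 2 and 3, and -0.11, -0.60 and -0.33 on +IFN arrays 1, 2 and 3. Cyp51 read -0.17, -0.51 and -0.28 on Control arrays 1, 2 and 3, and -0.22, -0.40 and -0.40 on +IFN arrays 1, 2 and 3. All values of both genes were below the ganglion level and the groups overlapped in both. The differences were 0.01 ± 0.16 (SE, 95% interval -0.38 to 0.39) for Lss and -0.02 ± 0.14 (SE, 95% interval -0.35 to 0.31) for Cyp51. These intervals allow at most 1.31-fold and 1.24-fold higher levels with interferon-gamma.

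In a limma fit over single features, 0 of the 19 features of the 8 genes passed, against 0.697% of all 45220 features.

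**Figure D2:**
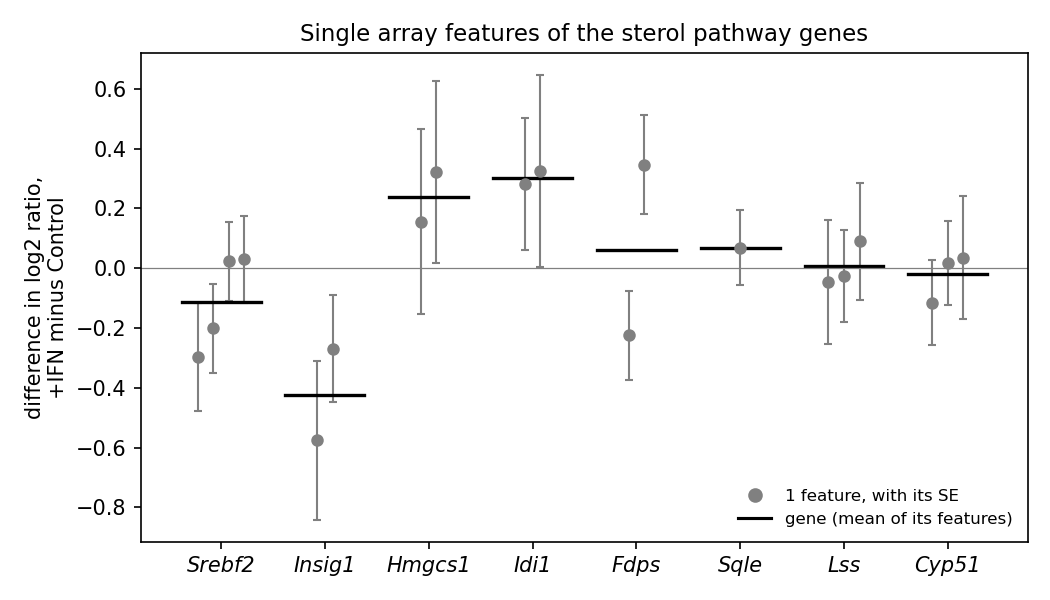
Difference in log2 ratio, +IFN minus Control, for each of the 19 features (grey points with SE from limma over all features) and for the gene as the mean of its features (black line). The 2 features of Fdps lie on opposite sides of 0, at -0.22 and 0.35, while both features of Insig1 lie below 0.

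Control neurons were then set against the ganglion reference, as a description without a test because the reference has no spread of its own. Of the 8 genes, 6 had a control mean below 0, as did 10211 of all 19087 genes. The median of the 8 was -0.17, compared with -0.03 for all genes. Fdps was lowest, at -0.59 ± 0.14 (SD, n = 3), and 10.2% of all genes had a lower control ratio. Lss followed at -0.35 ± 0.12, Cyp51 at -0.32 ± 0.17 and Sqle at -0.27 ± 0.12, and for these 4 genes every array lay below 0. Hmgcs1 at -0.08 ± 0.24 and Idi1 at -0.04 ± 0.31 had values on both sides of 0. The 2 features of Hmgcs1 disagreed, with control means of -0.44 and 0.28, and each kept its sign on all Control arrays. Those of Idi1 had control means of -0.12 and 0.04. Srebf2 was at 0.11 ± 0.03 and Insig1 was highest, at 0.36 ± 0.41, with 85.2% of all genes below it. The 12 other cholesterol synthesis enzymes measured had a median control ratio of 0.03, with 5 below 0. The low median of the 8 thus did not extend to the rest of the route. The 8 satellite and Schwann cell markers had control means from -1.81 for Fabp7, a lipid-binding protein of glia, to 0.86 for Cdh19, a cadherin, with a median of -0.07 and 4 of 8 below 0. Their part in the ratios of the sterol genes was not tested.

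The enzymes also varied from array to array within each group. The mean over the 8 genes was 0.03, -0.33 and -0.15 on Control arrays 1, 2 and 3, and 0.02, -0.28 and -0.14 on +IFN arrays 1, 2 and 3. Array 2 was thus lowest and array 1 highest in both groups. Hmgcs1, Idi1 and Fdps had array 2 as the lowest of both groups, 3 of the 8 genes, as did 18.2% of all genes. Among 12 other cholesterol synthesis enzymes 7 did, and their mean was -0.32 on Control array 2 and -0.28 on +IFN array 2. Their median was -0.06 on +IFN array 2, above the -0.13 and -0.21 on +IFN arrays 1 and 3. All 6 fibroblast markers had array 2 as the lowest of both groups, with the means given above. So did 5 of 8 satellite and Schwann cell markers and 4 of 5 markers of dividing cells. The part of these cells in the sterol gene ratios was not tested. Srebf2 ran the other way, with its highest value on array 2 in both groups.

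**Figure D3:**
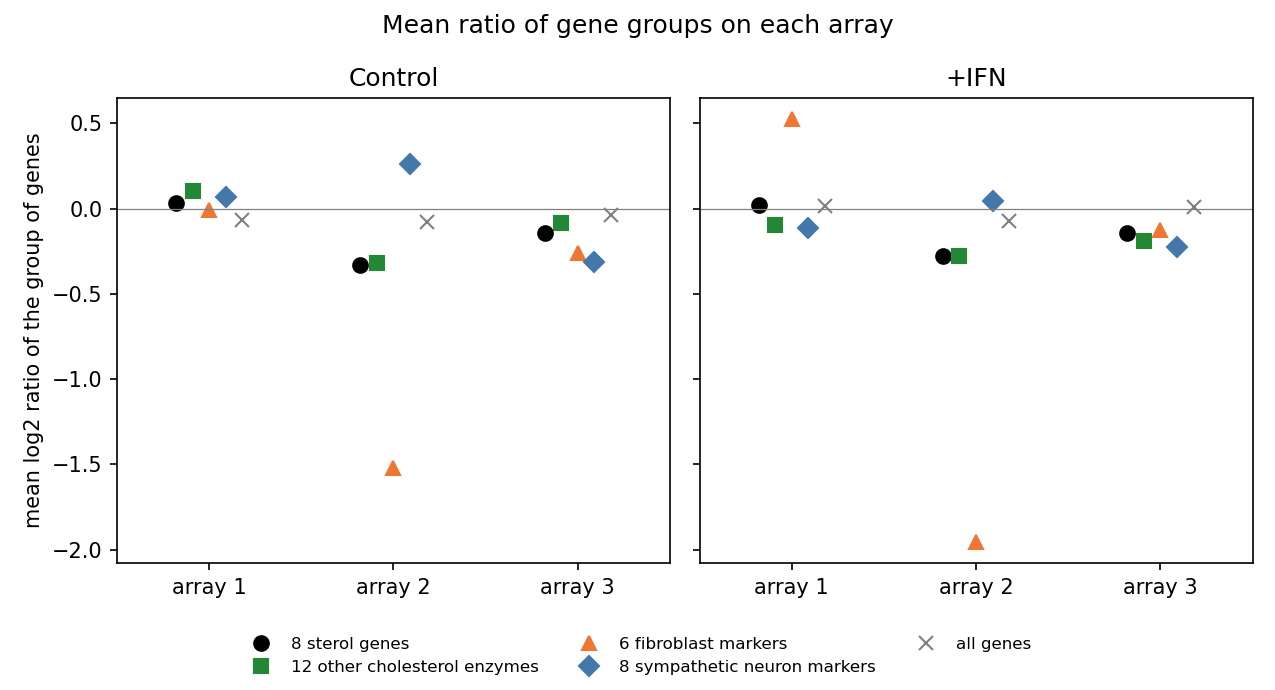
Mean log2 ratio of neurons over ganglion on each array for the 8 sterol genes, 12 other cholesterol enzymes, 6 fibroblast markers, 8 sympathetic neuron markers and all genes. The means of the sterol genes and of the other enzymes are lowest on array 2 of both groups, at -0.33 to -0.28. The fibroblast markers are at -1.52 and -1.95 there. The median of the other enzymes is not lowest on +IFN array 2.

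Over the 6 arrays, which share the reference and 2 groups, Hmgcs1 went with Lss (Pearson's r = 0.929) and Idi1 (r = 0.924), and Srebf2 ran against Hmgcs1 (r = -0.839). Insig1 had r = 0.006 to Hmgcs1 and r = 0.019 to Idi1. Outside the pathway and marker lists, the 5 genes most like the mean of the 8 were Tal2, Gm20275, Iyd, Cxcl14 and Traf7, with r of 0.980 to 0.991 over 6 arrays. Of all 19087 genes, 178 had an r of 0.9 or more to this mean. The 5 were picked for the highest r among all genes outside the lists. A high r over only 6 arrays follows from that choice and does not show a link to the pathway. The mean also did not stand for all 8 genes, although each is part of it. Its r was -0.54 to Srebf2 and 0.48 to Insig1, and from 0.84 (Sqle) to 0.93 (Cyp51) to the other members.

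The rest of the sterol route had no calls either. Only 1.14% of all genes passed, so 0 calls in a list this short, here or below, say little about the list. Among 12 other cholesterol synthesis enzymes measured, none passed in either direction, 5 differences were above 0 and 7 below, and the median was -0.05. In 2 of the 12, all +IFN arrays lay below all Control arrays, as in 1065 of all 19087 genes. In 0 of the 12 they all lay above, as in 1542 of all genes. Of the steps next to the 8 genes, Mvk, Mvd and Fdft1 had differences smaller than their SE, while Ggps1, given below, did not. Mvk, mevalonate kinase, differed by -0.06 ± 0.17 (SE), Mvd, which makes isopentenyl diphosphate, by -0.04 ± 0.25, and Fdft1, squalene synthase, by -0.11 ± 0.11. The lowest was Msmo1, which oxidises a methyl group of the sterol ring, at -0.52 ± 0.22 (95% interval -1.06 to 0.01, adjusted p = 0.631 by limma). Its ratios were 0.77, 0.39 and 0.57 on Control arrays 1, 2 and 3, and -0.15, 0.51 and -0.19 on +IFN arrays 1, 2 and 3. The groups overlapped through +IFN array 2 alone. Without that array the difference was -0.75 (adjusted p = 0.0968 by limma), and without both arrays numbered 2 it was -0.84 (adjusted p = 0.117 by limma). The highest was Ebp, a sterol isomerase, at 0.16 ± 0.19.

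Regulators of SREBP were also without a call. None of 11 measured genes passed, and the differences ran from -0.16 for Paqr3, which holds SCAP at the Golgi, to 0.16 for Rnf139, a ubiquitin ligase of the endoplasmic reticulum. Scap differed by 0.04 ± 0.14 (SE), Insig2 by -0.04 ± 0.13 and Srebf1, which encodes SREBP1, by -0.06 ± 0.19. Among 9 genes of cholesterol uptake and transport none passed, from Lrp1, a lipoprotein receptor, at -0.35 ± 0.17 to Npc1, which exports cholesterol from lysosomes, at 0.31 ± 0.24. Among 9 genes of the non-sterol isoprenoid branch none passed. Ggps1, which extends farnesyl diphosphate to geranylgeranyl diphosphate, was at 0.24 ± 0.14, Rabggta, a subunit of the Rab prenyltransferase, at 0.24 ± 0.15, and Pdss2, of ubiquinone synthesis, at -0.16 ± 0.34.

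In the 15 genes of fatty acid synthesis, whose known regulator is SREBP1, none passed and the median was -0.02. Acly, which supplies cytosolic acetyl-CoA to both fatty acids and sterols, was lowest. Its ratios were 0.71, 0.50 and 0.44 on Control arrays 1, 2 and 3, and -0.02, 0.003 and 0.20 on +IFN arrays 1, 2 and 3. All its +IFN arrays lay below all Control arrays, as in 1065 of all 19087 genes. The difference of -0.49 ± 0.13 (SE, 95% interval -0.80 to -0.17) had an unadjusted p of 0.00893 and did not pass over all genes (limma, adjusted p = 0.334). An unadjusted p under 0.05 (limma) with a lower value in +IFN neurons was found in 512 of all genes. Acacb, an acetyl-CoA carboxylase, was highest, at 0.28 ± 0.12. Among 7 genes of the LXR receptors and cholesterol efflux none passed either. The transporter Abcg1, an LXR target, was highest, at 0.55 ± 0.20 (adjusted p = 0.548), with control ratios of 1.37 to 1.96 and +IFN ratios of 2.05 to 2.48, and after quantile normalization its difference was -0.48. Lpcat3, a phospholipid enzyme, was lowest, at -0.16 ± 0.24.

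The calls in the sterol lists fell on oxysterol enzymes, 2 of 5 measured, both upwards. Over all 19087 genes, 1.12% were called upwards, 213 of the 217 calls. Ch25h, which hydroxylates cholesterol to an oxysterol known to hold back SREBP through INSIG, had ratios of -0.51, -0.20 and -0.23 on Control arrays 1, 2 and 3, and of 0.77, 0.94 and 0.91 on +IFN arrays 1, 2 and 3. The groups were far apart, and +IFN array 2 was as high as the others. Ch25h rose by 1.19 ± 0.13 (SE), or 2.28-fold (95% interval 1.82 to 2.85, limma, adjusted p = 0.0105). Without +IFN array 3 its adjusted p was 0.0799, at 1.17, and without both arrays numbered 2 it was 0.0578, at 1.21 (limma). Cyp7b1, a hydroxylase that acts on oxysterols, had ratios of 0.06, 0.16 and -0.24 on Control arrays 1, 2 and 3. On +IFN arrays 1, 2 and 3 its ratios were 0.93, 1.13 and 1.42. It rose by 1.17 ± 0.18 (SE), or 2.25-fold (95% interval 1.67 to 3.03, limma, adjusted p = 0.042). This call was lost whichever 1 of the 6 arrays was left out, with adjusted p of 0.0544 to 0.179 (limma), although the difference stayed between 1.04 and 1.29.

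The other oxysterol enzymes, Cyp27a1, Cyp46a1 and Cyp11a1, differed by 0.10 ± 0.15 (SE), 0.04 ± 0.11 and 0.11 ± 0.31. Of 6 macrophage markers measured, 1 passed. C1qa, a complement subunit, rose by 1.64 ± 0.23 (SE, limma, adjusted p = 0.0288), a call lost on leaving out any array but +IFN array 2 (limma, adjusted p 0.0897 to 0.163). Aif1, C1qb and Adgre1 had differences of 0.71, 0.64 and 0.62, Cx3cr1 of 0.03 and Itgam of -0.42, none past the threshold. The list mean was -0.40 to -0.19 on the Control arrays and 0.02 to 0.37 on the +IFN arrays. Within the +IFN group, Ch25h was highest on array 2, at 0.94, with 0.91 on array 3. The macrophage mean was lowest on array 2, at 0.02, though Adgre1 alone of these markers was highest there, at 1.41. Cyp7b1 was highest on array 3, at 1.42, where the macrophage mean was highest, at 0.37. Whether Ch25h or Cyp7b1 RNA came from neurons was not tested.

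**Figure D4:**
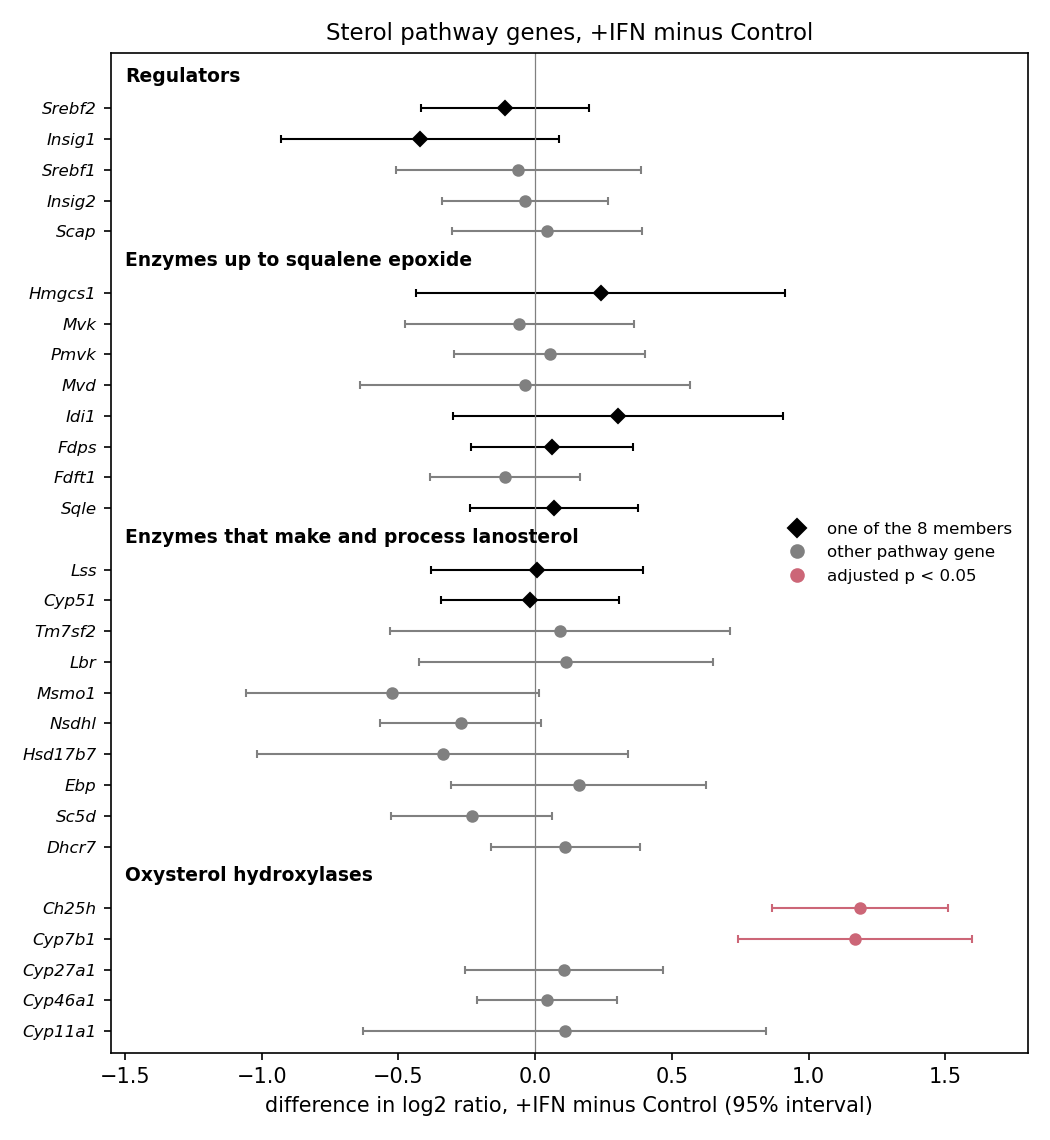
Difference in log2 ratio, +IFN minus Control, with its 95% interval (limma) for the 8 genes (black diamonds), other regulators and enzymes (grey) and genes with an adjusted p under 0.05 (red). Ch25h and Cyp7b1, at 1.19 and 1.17, lie clear of 0, and the intervals of all 8 sterol genes include 0.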

How the data were processed

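The 6 two-colour arrays, 3 Control and 3 +IFN, were grouped by the labels of the Cy5 channel. Per the submitters' processing notes, images were read with Agilent Feature Extraction; its version and the normalization are not given in the sources used here. The authors deposited 1 log ratio per feature, taken as log2 (range -9.00 to 10.7) and centred by them, with array medians of 0 to 0.005. Signals and depth are not in this table, so dim features could not be filtered, and the number of arrays limits the precision. Dyes were not swapped, so a dye effect stays in each ratio. Exact zeros (309 to 715 features per array) may be unmeasured; no feature of the 8 genes was at 0.

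Platform annotation gave 1 gene for 33653 of 45220 features, and 33517 were matched by gene number to RefSeq (GRCm38.p6) for symbols and promoters. A gene's value was the mean over its features. Differences were tested by limma (version 3.58.1, R 4.3.3, two-sided, Benjamini-Hochberg over 19087 genes, threshold 0.05), tested on simulated data. The members and lists were chosen with earlier results of these data known. Named genes were the 8 members, from each other pathway list the genes past the threshold, its highest and lowest difference and the steps next to a member, Irf1 and Tap1, and the 5 genes most like the members. Cyp27a1, Cyp11a1 and the single marker genes fall outside this rule and were chosen after their values were seen. Alternatives left out each array, added the replicate number as a block, or changed scaling, weights, variance model, feature summary, zeros or filter. List genes without a value are not analysed here.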

Additional observations from a re-analysis of the deposited data

How the results depend on the processing

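None of the 8 genes passed in any of the 14 alternatives, and the lowest adjusted p was 0.361, for Insig1 (limma). The number of genes past the threshold over the whole table, 217, ranged from 113 to 508 when 1 array was left out, with the highest count without +IFN array 2. The median difference of the 8 moved within -0.04 to 0.09, and their median control ratio within -0.27 to -0.09. Differences near 0 changed sign when 1 array was left out in Cyp51 (-0.116 to 0.0544), Lss (-0.114 to 0.133), Fdps (-0.0202 to 0.106), Hmgcs1 (-0.0243 to 0.50) and Sqle (-0.000167 to 0.129). Cyp51 was also at 0.00295 with array weights and at 0.039 with the median over features, and Srebf2 was at 0.0148 with the median over features. The cause was not tested.

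Other pathway genes also changed sign when 1 array was left out. Their ranges were -0.106 to 0.0531 for Insig2, -0.39 to 0.0325 for Lpcat3, -0.253 to 0.155 for Mvd, -0.196 to 0.0466 for Mvk, -0.42 to 0.12 for Pdss2, -0.0725 to 0.107 for Scap and -0.218 to 0.0602 for Srebf1. With array weights Mvd was at 0.0969, Mvk at 0.0333 and Srebf1 at 0.0635, and with quantile normalization Abcg1 was at -0.477. The cause was not tested. With a variance trend and robust fit, Cyp7b1 was at an adjusted p of 0.0535 (limma). Without both arrays numbered 2, an alternative chosen after seeing the data, 0 of the 8 genes and 322 genes in all passed, Insig2 was at 0.04 and Cyp7b1 had an adjusted p of 0.101 (limma). A fit over single features, also chosen after seeing the data, called 0 of 19 features of the 8 genes and 315 of 45220 features in all. A filter on dim features could not be run without signals, and genes with a mean absolute ratio under 0.1 were left out instead.

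Arrays of the same number were not treated as pairs, because the correlation over all genes was not above 0.1 in every pair. Deviations from the group means correlated across genes with r of 0.064, 0.309 and -0.031 for numbers 1, 2 and 3, or of 0.2, 0.442 and 0.38 over the 8 genes alone, and Control array 1 correlated best with +IFN array 3, at 0.172 across genes and 0.508 over the 8. With the number as a replicate block, 166 genes and 0 of the 8 passed (limma), and the calls of Cyp7b1 and C1qa were lost at adjusted p of 0.165 and 0.055. The blocked adjusted p was 0.595 for Idi1, 0.646 for Insig1 and 0.734 for Hmgcs1 (limma). The blocked SE was 0.13 against 0.25 without the block for Idi1, and 0.16 against 0.28 for Hmgcs1. It was 0.14 against 0.16 for Lss and 0.13 against 0.14 for Cyp51. Insig1 stayed at 0.21 and Sqle at 0.13, and the SE of Fdps and Srebf2 was slightly higher with the block. The intervals given above for Idi1 and Hmgcs1 are thus wider than under the block.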
